A study of Homo sapiens with 12 samples.

Results

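The class I phosphoinositide 3-kinase (PI3K) subunits and the core of the AKT pathway were examined as 8 genes, matched by symbol to the Ensembl gene identifiers of a table of 43876 human genes. They are the catalytic subunit genes PIK3CA, PIK3CB, PIK3CD and PIK3CG, the regulatory subunit genes PIK3R1 and PIK3R5, the effector kinase gene AKT2 and the lipid phosphatase gene INPP5D. All 8 were found and all 8 passed the filter on low values, which left 18574 genes for testing. RNA was sequenced from MV4-11, a human acute myeloid leukemia line that carries an internal tandem duplication in the receptor FLT3 (FLT3-ITD) and whose genotype is labelled Wild-type, in 12 libraries after 24 h of culture. The 4 conditions had 3 libraries each, numbered 1 to 3: DMSO (vehicle), Mitoxantrone at 20 nM, Gilteritinib at 25 nM, and Drug-combination with mitoxantrone at 20 nM and gilteritinib at 20 nM. Mitoxantrone is a topoisomerase II poison, which the labels name plainly and the study's text describes as a liposomal form, and gilteritinib is a FLT3 kinase inhibitor. All conditions share the same line, so the values describe 1 cell line, and no source used here says whether libraries of a condition came from separate cultures. The p-values below therefore measure the spread between these libraries, which may be technical.

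Class I PI3K phosphorylates a membrane lipid to make PIP3, which draws AKT to the membrane, where it is activated. Each enzyme pairs a catalytic subunit with a regulatory one: the class IA catalytic subunits (from PIK3CA, PIK3CB and PIK3CD) bind the adaptors encoded by PIK3R1 and its relatives downstream of receptor tyrosine kinases such as FLT3, whereas the class IB subunit from PIK3CG binds the product of PIK3R5 or PIK3R6 and answers to G protein-coupled receptors. PIK3CD and PIK3CG are known as the leukocyte forms, and INPP5D encodes SHIP1, a blood-cell phosphatase that takes a phosphate off PIP3.

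The labelled cell type was checked first. All 9 myeloid leukemia markers passed the filter, with FLT3 at 132 to 171 FPKM (fragments per kilobase of gene length, scaled to the depth of the library), whereas 3 of 3 T cell and 4 of 4 epithelial markers stayed below 1 FPKM in every library, as did 2 of 3 erythroid and 3 of 4 fibroblast and endothelial markers. The exceptions in the last 2 lists were HBB (0 to 2.85 FPKM) and PECAM1 (9.17 to 25.1 FPKM). The libraries held 31725047 to 41330633 fragments, as recovered from the FPKM steps. Replicate 1 stood apart from replicates 2 and 3 in every condition: the first principal component, 41.9% of the variance, separated it, and 39.6% of all genes tested differed between replicate 1 and the other 2 at an adjusted p under 0.05 (limma with the condition in the model, a comparison added after seeing the data). Calls that changed with replicates 2 and 3 only are therefore also given for the members, and as counts for the pathway lists.

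The 4 catalytic genes are paralogs, and a stretch of 60 coding bases around the catalytic loop of the kinase domain shows how far apart they are as targets of read mapping. The sequences below are from GENCODE release 29 on GRCh38, coding strand, 5′ to 3′, with the bases that all 4 genes share in capitals.
PIK3CA: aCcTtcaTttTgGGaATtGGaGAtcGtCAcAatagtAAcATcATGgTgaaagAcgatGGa
PIK3CB: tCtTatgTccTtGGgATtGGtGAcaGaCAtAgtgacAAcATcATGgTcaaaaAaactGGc
PIK3CD: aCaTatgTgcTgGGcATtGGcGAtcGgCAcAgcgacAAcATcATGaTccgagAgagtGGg
PIK3CG: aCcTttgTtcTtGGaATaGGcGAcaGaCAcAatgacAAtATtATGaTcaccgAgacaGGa
The PIK3CA stretch lies in coding exon sequence at chr3:179230059-179230118 on the plus strand (exon 19 of 21), PIK3CB at chr3:138663909-138663968 on the minus strand (exon 19 of 22) and PIK3CD at chr1:9724030-9724089 on the plus strand (exon 21 of 24). The PIK3CG stretch spans the junction of exons 9 and 10 of 11, from chr7:106884209 to chr7:106886136 on the plus strand. Even in this conserved loop only 27 of 60 bases were common to all 4, and pairs shared 36 (PIK3CA and PIK3CB) to 42 bases (PIK3CB with PIK3CD or PIK3CG). Over the whole coding sequences, the longest run of identical bases between any pair of catalytic genes was 14, between PIK3CB and PIK3CD and between PIK3CA and PIK3CG. The run that PIK3CB and PIK3CD share is cgagccattgagga, far shorter than a usual read. AKT1 and AKT2 shared a longer run of 32 bases, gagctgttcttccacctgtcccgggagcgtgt, and INPP5D shared 20 bases with its paralog INPPL1.

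Overlapping genes bear on some members, since the transposase-based library kit does not mark strand. PIK3CA (ENSG00000121879, chr3:179148114-179240093, plus strand) shares 35.8% of its exon bases with KCNMB3 on the opposite strand, which was listed at a median of 0.769 FPKM against 3.64 for PIK3CA. PIK3CD (ENSG00000171608, chr1:9651732-9729114, plus strand) shares 89 exon bases, 1.41% of its exons, with CLSTN1. PIK3CD-AS1 and PIK3CD-AS2, antisense genes within its span with medians of 6.21 and 3.85 FPKM, share no exon base with it. The other members share no exon base with another gene: PIK3CB (ENSG00000051382, chr3:138652699-138834938, minus), PIK3CG (ENSG00000105851, chr7:106865278-106907145, plus), PIK3R1 (ENSG00000145675, chr5:68215720-68301821, plus), PIK3R5 (ENSG00000141506, chr17:8878911-8965712, minus), AKT2 (ENSG00000105221, chr19:40230317-40285536, minus) and INPP5D (ENSG00000168918, chr2:233059967-233207903, plus).

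In MV4-11 the most abundant of the 8 transcripts per length was PIK3CD, the leukocyte catalytic subunit. The median FPKM over the 12 libraries was 45.9 for PIK3CD, 34.0 for PIK3R1, 28.4 for PIK3CB, 28.3 for AKT2, 20.8 for PIK3R5, 12.3 for PIK3CG, 3.64 for PIK3CA and 1.33 for INPP5D. PIK3CD thus stood above 88.5% of the 10506 protein-coding genes tested, PIK3CG above 54.3%, PIK3CA above 22.1% and INPP5D above 5.95%. Neighbours in this order overlapped in range for PIK3CD and PIK3R1, PIK3R1 and PIK3CB, PIK3CB and AKT2, and AKT2 and PIK3R5. Within libraries the order was firmer: PIK3CD exceeded PIK3R1 in 12 of 12 libraries, PIK3R1 exceeded PIK3CB in 11, and AKT2 exceeded PIK3R5 in 12, whereas PIK3CB exceeded AKT2 in only 8 of 12. PIK3R5, PIK3CG, PIK3CA and INPP5D followed with no overlap between neighbours in any library of any condition.

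These levels depend on the gene length the authors divided by. For each member 1 length, or a multiple of it, gave whole fragments in all 12 libraries (within 0.05 of a whole number). The shortest was taken, and for PIK3CD, PIK3R5 and INPP5D it equalled the longest GENCODE 29 transcript. The length behind PIK3CG, 7059 bases, exceeded that transcript by 1682 bases, and at the transcript's own length the PIK3CG median would be 16.1 FPKM, still under every PIK3R5 value. The differences for the other 4 genes were 36 to 340 bases, and PIK3CB at the longest transcript would have a median of 30.03 FPKM against 28.04 for AKT2.

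Among the catalytic genes, PIK3CD held about as much of the summed FPKM as the other 3 together: 49.8% ± 3.53 (SD, n = 12 libraries), against 32.4% ± 2.54 for PIK3CB, 13.7% ± 1.63 for PIK3CG and 4.14% ± 0.479 for PIK3CA. The PIK3CD share was 49.1% ± 4.60 in DMSO, 48.9% ± 0.0772 in Mitoxantrone, 51.0% ± 5.06 in Gilteritinib and 50.3% ± 4.19 in Drug-combination (SD, n = 3 each). The PIK3CB share was 32.4% ± 2.27 in DMSO, 34.9% ± 0.860 in Mitoxantrone, 30.4% ± 2.40 in Gilteritinib and 31.7% ± 2.79 in Drug-combination. The PIK3CD shares of all conditions overlapped, whereas the PIK3CB shares of the Mitoxantrone libraries (34.1% to 35.8%) lay above those of the Gilteritinib libraries (28.9% to 33.2%) and overlapped the rest. Replicate 1 had the lowest PIK3CD share of its condition in all 4 conditions, by the widest margin in Gilteritinib, where it held 45.2% in replicate 1 against 54.3% and 53.5% in replicates 2 and 3, and by the narrowest in Mitoxantrone, at 48.8% against 49.0% and 49.0%. PIK3CD was 1.25 to 1.86 times PIK3CB and 8.996 to 15.1 times PIK3CA across the libraries. The shares are a description of abundant and scarce transcripts, with no test.

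Of the 8 members, 0 passed an adjusted p of 0.05 in any of the 6 comparisons between conditions (limma on log2(FPKM + 1), adjusted over all genes tested). Few or no genes passed anywhere in the table. The share called over all genes was 0% for Mitoxantrone minus DMSO, 0% for Gilteritinib minus DMSO, 0.00538% for Drug-combination minus DMSO (1 gene), and 0% for Drug-combination minus Gilteritinib, Drug-combination minus Mitoxantrone and Gilteritinib minus Mitoxantrone. At an unadjusted p under 0.05, 1 of the 48 member tests was called, PIK3CB in Gilteritinib minus Mitoxantrone, where 9.52% of all genes were. With the replicate number as a block, 0 members passed the adjusted threshold, beside 0.0108% of all genes in Drug-combination minus Mitoxantrone, 0.0269% in Gilteritinib minus Mitoxantrone and 0% in the rest, while the unadjusted count rose to 7. These were PIK3CB and PIK3CG in Mitoxantrone minus DMSO (15.9% of all genes), PIK3CB, PIK3CG and PIK3R1 in Drug-combination minus Mitoxantrone (12.2%), and PIK3CB and PIK3CG in Gilteritinib minus Mitoxantrone (18% of all genes). The blocked fit gave 0 members at an unadjusted p under 0.05 in Gilteritinib minus DMSO, Drug-combination minus DMSO and Drug-combination minus Gilteritinib, beside 4.96%, 4.35% and 4.39% of all genes. The largest difference among the 48 was 0.24 in size on the log2(FPKM + 1) scale, and no 95% interval reached beyond a fold of 0.687 or 1.40 on that scale, which understates the changes of low genes such as INPP5D. The groups did not overlap for 4 of the 48, described below, and for 0 of 8 members in Drug-combination minus DMSO and Drug-combination minus Gilteritinib (5.73% and 6.2% of all genes). In bulk RNA, fewer cells with a transcript and less of it per cell cannot be told apart. Values for the members follow by role, and the comparisons with a condition in common share its libraries.

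**Figure D1:**
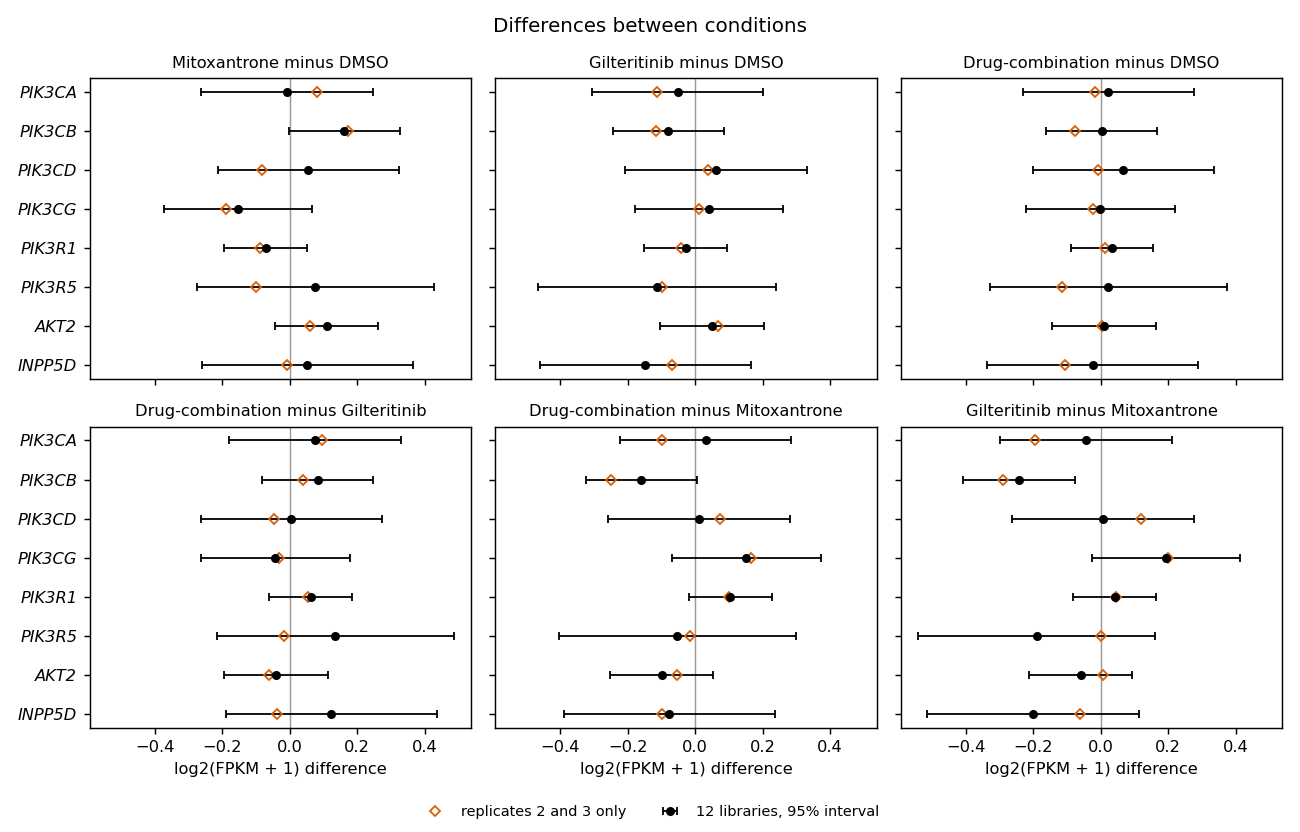
Differences in log2(FPKM + 1) of the 8 genes for the 6 comparisons between conditions: filled points with bars are the estimate and its 95% interval from all 12 libraries, open diamonds the estimate from replicates 2 and 3 only. The interval of PIK3CB in Gilteritinib minus Mitoxantrone is the only one that leaves out 0.

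PIK3CB, which encodes the broadly expressed beta catalytic subunit, had the largest difference. Its FPKM was 28.5, 29.2 and 27.8 in DMSO replicates 1 to 3, 31.4, 32.8 and 31.8 in Mitoxantrone, 28.3, 26.5 and 25.96 in Gilteritinib, and 32.0, 26.4 and 27.6 in Drug-combination. All 3 Mitoxantrone libraries lay above all 3 DMSO and all 3 Gilteritinib libraries, while Drug-combination ran from below the DMSO libraries to within the Mitoxantrone range. The means were 28.5 ± 0.660, 32.0 ± 0.715, 26.9 ± 1.23 and 28.7 ± 2.95 FPKM (SD, n = 3). Gilteritinib minus Mitoxantrone was -0.24 (SE 0.0747, 95% interval -0.41 to -0.08) with an adjusted p of 0.342, lower in 3 of 3 same-numbered pairs, and Mitoxantrone minus DMSO was 0.16 (SE 0.0747, adjusted p 0.641), higher in 3 of 3 pairs. Groups without overlap were common in both comparisons, at 14.4% and 13.6% of all genes.

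The Drug-combination value of PIK3CB turned on replicate 1, which stood at 32.0 FPKM against 26.4 and 27.6. With all libraries, Drug-combination minus Mitoxantrone was -0.16 (SE 0.0747, adjusted p 0.893). With replicates 2 and 3 only, PIK3CB was called lower in Drug-combination than in Mitoxantrone (-0.25, adjusted p 0.0240) and lower in Gilteritinib than in Mitoxantrone (-0.29, adjusted p 0.0156), while Mitoxantrone minus DMSO was 0.17 with an adjusted p of 0.0637. In that subset 6.13%, 6.63% and 6.41% of all genes were called in these 3 comparisons, beside 1, 1 and 0 of the 8 members. In the same subset 0 members were called in Gilteritinib minus DMSO, Drug-combination minus DMSO, Drug-combination minus Gilteritinib and the interaction, beside 0.614%, 0.0485%, 0.0754% and 2.97% of all genes. Leaving out any single library gave no call for PIK3CB or another member.

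PIK3CD, the delta catalytic gene, was high in every condition, with its lowest values in replicate 1. Its FPKM was 35.6, 48.2 and 46.7 in DMSO, 45.1, 44.9 and 44.6 in Mitoxantrone, 38.5, 49.4 and 48.0 in Gilteritinib, and 41.7, 47.4 and 46.9 in Drug-combination. Replicate 1 was the lowest of its condition in DMSO, Gilteritinib and Drug-combination, whereas the 3 Mitoxantrone libraries were nearly level. Means were 43.5 ± 6.86, 44.8 ± 0.244, 45.3 ± 5.91 and 45.3 ± 3.16 FPKM (SD, n = 3). Mitoxantrone minus DMSO was 0.06 (SE 0.122, 95% interval -0.21 to 0.32), and the other comparisons of PIK3CD were 0.07 or less in size. Over all conditions PIK3CD was lower in replicate 1 than in replicates 2 and 3 (-0.22, SE 0.0572, adjusted p 0.0124).

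PIK3CG, the class IB catalytic gene, had its lowest mean in Mitoxantrone. It stood at 13.2, 12.4 and 11.8 FPKM in DMSO, 12.4, 10.2 and 10.8 in Mitoxantrone, 14.3, 11.8 and 12.5 in Gilteritinib, and 13.6, 11.6 and 12.1 in Drug-combination. Replicate 1 was the highest library of each condition, and the conditions overlapped in all 6 comparisons. Within each replicate number, however, Mitoxantrone was below DMSO, Gilteritinib and Drug-combination in 3 of 3 pairs each. Mitoxantrone minus DMSO was -0.15 (SE 0.0998, adjusted p 0.789) and Gilteritinib minus Mitoxantrone 0.19 (SE 0.0998, 95% interval -0.03 to 0.41, adjusted p 0.599). Replicate 1 was higher than replicates 2 and 3 over all conditions (0.19, SE 0.0398, adjusted p 0.00533).

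PIK3CA, the alpha catalytic gene that is often mutated in solid tumors, was the scarcest catalytic transcript. It stood at 3.96, 3.63 and 3.57 FPKM in DMSO, 3.36, 3.82 and 3.92 in Mitoxantrone, 4.21, 3.34 and 3.17 in Gilteritinib, and 4.33, 3.45 and 3.65 in Drug-combination. Every condition overlapped every other, and replicate 1 was the highest library in 3 conditions but the lowest in Mitoxantrone. Its largest difference was Drug-combination minus Gilteritinib at 0.08 (SE 0.115, 95% interval -0.18 to 0.33). These values rest on 1090 to 1610 fragments a library, for a counting error of 2.49% to 3.03%, while the libraries of a condition varied by 5.57% to 15.5% (coefficient of variation).

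**Figure D2:**
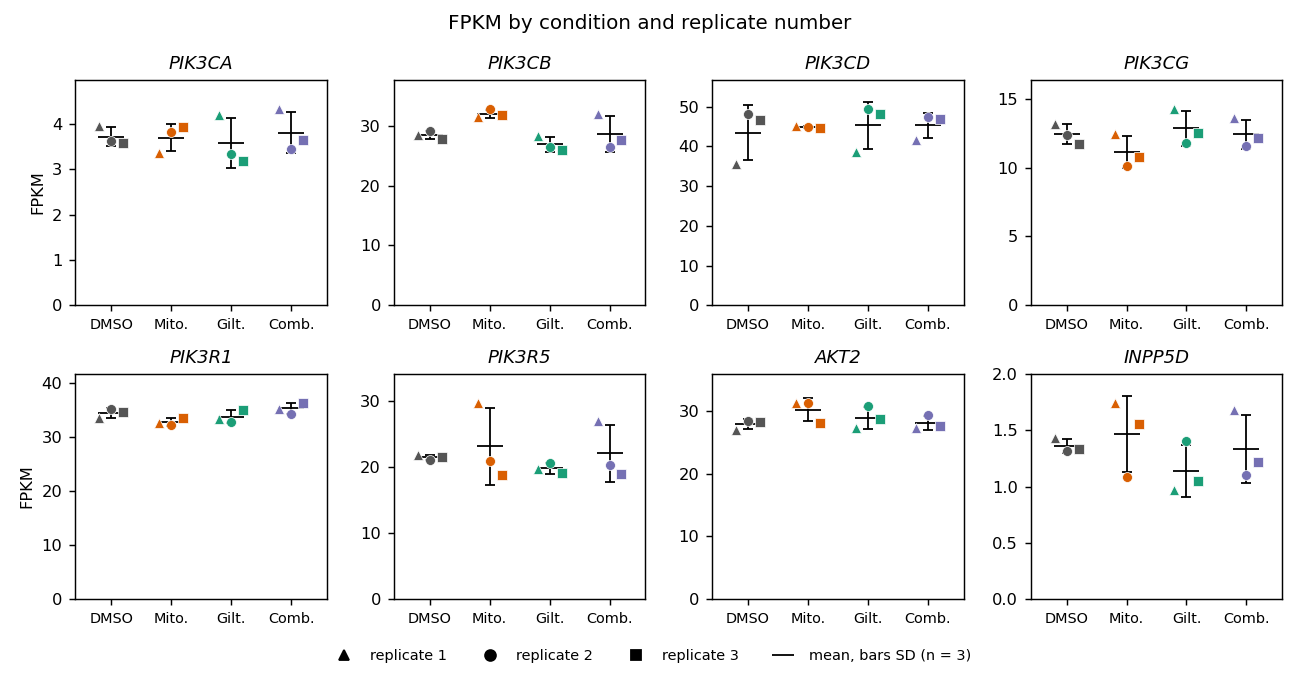
FPKM (vertical axes from 0, a separate scale for each gene) by condition for the 8 genes, with symbols for the replicate number and bars for the mean ± SD (n = 3). Replicate 1 lies below the others for PIK3CD in DMSO, Gilteritinib and Drug-combination and above them for PIK3R5 in Mitoxantrone and Drug-combination.

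PIK3R1, which encodes the main class IA regulatory subunit and stabilizes the catalytic partners, was the steadiest member. It stood at 33.5, 35.3 and 34.7 FPKM in DMSO, 32.6, 32.2 and 33.6 in Mitoxantrone, 33.4, 32.9 and 35.1 in Gilteritinib, and 35.3, 34.3 and 36.4 in Drug-combination. Its highest library was 1.13 times its lowest, and all 3 Drug-combination libraries lay above all 3 Mitoxantrone libraries, as was the case in one direction or the other for 9.34% of all genes. That difference was 0.10 (SE 0.0556, 95% interval -0.02 to 0.23, adjusted p 0.925), higher in 3 of 3 pairs. The interaction, which asks whether mitoxantrone shifted a gene differently with gilteritinib than without it (at unequal gilteritinib doses), was 0.13 for PIK3R1 (SE 0.0786, adjusted p 0.9997). The largest in size of the 8 was that of AKT2, at -0.15 (SE 0.0981, adjusted p 0.9997). The interaction called 0 of 8 members, and 0% of all genes, at an adjusted p under 0.05. At an unadjusted p under 0.05 it called 0 members and 2.91% of all genes (0 members and 7.4% with the block).

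PIK3R5, the class IB regulatory gene, had a wide spread within the conditions that held mitoxantrone. It stood at 21.8, 21.0 and 21.6 FPKM in DMSO, 29.7, 20.9 and 18.7 in Mitoxantrone, 19.6, 20.6 and 19.0 in Gilteritinib, and 27.0, 20.3 and 18.8 in Drug-combination. Replicate 1 of Mitoxantrone and of Drug-combination, the conditions with mitoxantrone, were the 2 highest libraries, while replicates 2 and 3 of those conditions lay below all DMSO libraries. Mitoxantrone minus DMSO was 0.08 with all libraries (SE 0.159, adjusted p 0.964) and -0.10 with replicates 2 and 3 only (adjusted p 0.478). All Gilteritinib libraries lay below all DMSO libraries (-0.11, SE 0.159, 95% interval -0.46 to 0.24), as groups did without overlap for 6.57% of all genes. In the model over all conditions replicate 1 was higher (0.26, SE 0.0899, adjusted p 0.0458). In Gilteritinib, however, it lay between replicates 2 and 3, at 19.6 FPKM against 20.6 and 19.0. In FPKM, PIK3R5 stood at 1.38 to 2.39 times its class IB partner PIK3CG.

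AKT2 was not called in any comparison, with condition means from 27.8 FPKM in DMSO to 30.2 in Mitoxantrone. It stood at 26.9, 28.3 and 28.3 FPKM in DMSO, 31.3, 31.2 and 28.0 in Mitoxantrone, 27.3, 30.8 and 28.7 in Gilteritinib, and 27.3, 29.3 and 27.5 in Drug-combination. Replicates 1 and 2 of Mitoxantrone were the highest libraries, and all conditions overlapped. Mitoxantrone minus DMSO was 0.11 (SE 0.0694, 95% interval -0.04 to 0.26), Drug-combination minus DMSO 0.01 (95% interval -0.14 to 0.16), and Drug-combination minus Mitoxantrone -0.10 (95% interval -0.25 to 0.05), with adjusted p of 0.773, 1 and 0.960.

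INPP5D, the gene of SHIP1, was near the filter and had the largest counting error of the members. It stood at 1.43, 1.32 and 1.33 FPKM in DMSO, 1.74, 1.09 and 1.56 in Mitoxantrone, 0.968, 1.40 and 1.05 in Gilteritinib, and 1.68, 1.11 and 1.22 in Drug-combination. Each treated condition was wider than DMSO and overlapped it. The values rest on 182 to 371 fragments a library, for a counting error of 5.19% to 7.41%, and the coefficient of variation within a condition was 4.54% to 23.1%. Its largest difference was Gilteritinib minus Mitoxantrone at -0.20 (SE 0.142, 95% interval -0.51 to 0.11), or -0.33 on the log2(FPKM + 0.1) scale, which compresses low values less.

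The partners and relatives of the members set the subunit balance in context. PIK3R2, a class IA regulatory gene, was listed at a median of 0.0994 FPKM. Its level is uncertain, since 87.2% of its exon bases are shared with other annotated genes on either strand. The largest overlap is with AC007192.1, on the same strand. PIK3R3, the third regulatory gene of class IA, had a median of 3.14 FPKM. Other genes on either strand share 17.4% of its exon bases, with the largest overlap on its own strand. PIK3AP1, the adaptor BCAP that recruits PI3K in blood cells, had 105 FPKM. PIK3R6, the alternative partner of PIK3CG, was near the filter, with condition means of 0.596 FPKM in DMSO, 1.12 in Mitoxantrone, 0.636 in Gilteritinib and 0.866 in Drug-combination. Mitoxantrone and DMSO did not overlap for PIK3R6 (0.41, SE 0.144, adjusted p 0.523), as was the case for 13.6% of all genes. PIK3IP1, an inhibitor of the catalytic subunits, had a median of 1.07 FPKM.

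AKT2 was more abundant than AKT1. It stood at 1.45 to 1.89 times AKT1 per length across the libraries. The ratio was 1.45 to 1.51 in the DMSO libraries, below that of every treated library (1.56 to 1.89), a description with no test. AKT1 had condition means of 18.7 FPKM in DMSO, 18.0 in Mitoxantrone, 17.1 in Gilteritinib and 16.5 in Drug-combination. Drug-combination minus DMSO was -0.18 for AKT1 (SE 0.0857, adjusted p 1). All Drug-combination libraries lay below all DMSO libraries for AKT1, as groups did without overlap, in either direction, for 5.73% of all genes. Of the kinases that act on AKT, PDPK1 had a median of 7.85 FPKM. Other genes on either strand share 23.7% of its exon bases, and the largest overlap is with an antisense gene. The mTORC2 genes MTOR, RICTOR, MLST8 and MAPKAP1 had medians of 23.4, 22.4, 17.1 and 22.8 FPKM. Of the 6 tested genes of AKT kinases and activators besides AKT2, 0 passed at an adjusted or unadjusted p under 0.05 in any of the 6 comparisons without the block. With it, AKT1 and MLST8 were lower in Drug-combination than in DMSO at an unadjusted p under 0.05, beside 4.35% of all genes. None of the 6 passed the adjusted threshold with the block.

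Among the phosphatases, the SHIP2 gene INPPL1 exceeded INPP5D by 13.2 to 24.9 times. INPPL1 had condition means of 21.8 FPKM in DMSO, 25.5 in Mitoxantrone, 20.4 in Gilteritinib and 21.7 in Drug-combination. The Mitoxantrone libraries lay above those of each other condition without overlap. Mitoxantrone did not overlap DMSO for 13.6% of all genes, Gilteritinib for 14.4% and Drug-combination for 9.34%. The differences of INPPL1 were 0.22 from DMSO (SE 0.0826, adjusted p 0.566) and -0.31 for Gilteritinib minus Mitoxantrone (SE 0.0826, adjusted p 0.280), neither past the threshold. INPP4B, a 4-phosphatase gene, stayed at or below 0.0112 FPKM and was not tested. PHLPP1 and PPP2CA, from phosphatases that act on AKT itself, had medians of 33.6 and 54.5 FPKM, INPP4A 9.18 and PHLPP2 1.16.

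Across 8 lists of pathway genes around the members (70 genes, 56 of them tested), 0 passed an adjusted p of 0.05 in any comparison with all 12 libraries. At an unadjusted p under 0.05, 5 of 56 were higher and 0 lower in Mitoxantrone than in DMSO (7.9% of all genes in either direction), 0 were called in Gilteritinib minus DMSO (1.86%), and 1 was higher in Drug-combination than in DMSO (1.67%). There were 0 in Drug-combination minus Gilteritinib (1.63%), 2 lower in Drug-combination than in Mitoxantrone (5.53%), and 6 lower in Gilteritinib than in Mitoxantrone (9.52%). The median difference of the 56 genes was 0.01 in Mitoxantrone minus DMSO, -0.03 in Gilteritinib minus DMSO and 0.00 in Drug-combination minus DMSO, beside 0.03, -0.03 and -0.01 over all genes. With the replicate number as a block, 0 of 56 passed the adjusted threshold, while the unadjusted counts rose to 7 higher and 3 lower in Mitoxantrone minus DMSO (15.9% of all genes), 0 and 2 in Gilteritinib minus DMSO (4.96%), and 3 and 2 in Drug-combination minus DMSO (4.35%). The block gave 0 in Drug-combination minus Gilteritinib (4.39%), 2 higher and 4 lower in Drug-combination minus Mitoxantrone (12.2%), and 1 higher and 11 lower in Gilteritinib minus Mitoxantrone (18%). With replicates 2 and 3 only, the count past the adjusted threshold was 4 of 56 in Mitoxantrone minus DMSO (3 higher, beside 6.41% of all genes), 1 in Gilteritinib minus DMSO (0 higher, 0.614%), and 1 in Drug-combination minus DMSO (0 higher, 0.0485%). It was 0 in Drug-combination minus Gilteritinib (0.0754%), 7 in Drug-combination minus Mitoxantrone (1 higher, 6.13%), and 6 in Gilteritinib minus Mitoxantrone (0 higher, 6.63%).

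Further from the members, 5 of 6 class II and III PI3K genes were tested and 0 were called in any comparison at an unadjusted p under 0.05 without the block. With it, PIK3R4 was called lower in Mitoxantrone minus DMSO at an unadjusted p under 0.05 (15.9% of all genes). PIK3R4 was called higher in Drug-combination minus Mitoxantrone (12.2%) and in Gilteritinib minus Mitoxantrone (18%), and PIK3C2A lower in the last of these. PIK3C2A, named after its values were seen, also passed the adjusted threshold there with replicates 2 and 3 only (-0.26, adjusted p 0.0247), beside 6.63% of all genes. Of the 5 tested, PIK3C3 and PIK3R4, the class III kinase and its regulatory subunit, had medians of 8.35 and 14.01 FPKM, their partner BECN1 12.4 and the class II gene PIK3C2B 2.53. Of the 12 receptor adaptor and RAS genes, 10 were tested. GRB2, the adaptor that links receptors to RAS, was the most abundant of those named at a median of 166 FPKM, above PTPN11 (49.8), CBL (17.6), SHC1 (16.0) and IRS2 (2.48). CBL, a ubiquitin ligase of activated receptors, was the 1 adaptor called at an unadjusted p under 0.05 without the block. It was lower in Gilteritinib than in Mitoxantrone (-0.16, SE 0.0721, adjusted p 0.525), where 9.52% of all genes were called. At the same unadjusted threshold the block gave 1 adaptor lower in Gilteritinib minus DMSO (4.96% of all genes) and 2 in Gilteritinib minus Mitoxantrone (18%). Replicates 2 and 3 only gave 1 past the adjusted threshold, lower, in each of Drug-combination minus Mitoxantrone (6.13%) and Gilteritinib minus Mitoxantrone (6.63%). Of the kinase GSK3 and FOXO genes, 5 of 6 were tested and 0 were called at an unadjusted p under 0.05 with or without the block, with medians of 18.2 FPKM for GSK3A, 25.9 for GSK3B, 6.47 for FOXO3, 2.47 for FOXO4 and 9.26 for BAD, all substrates of AKT.

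The 13 tested target genes of the FOXO transcription factors, which AKT keeps out of the nucleus, had a median of 0.16 in Mitoxantrone minus DMSO against 0.03 over all genes, with 10 of 13 higher and 0 past the adjusted threshold with all libraries. In Gilteritinib minus DMSO their median was -0.06 against -0.03 over all genes, with 5 of 13 higher, and in Gilteritinib minus Mitoxantrone it was -0.20 against -0.06. With replicates 2 and 3 only, 2 of 13 passed the adjusted threshold in Mitoxantrone minus DMSO, both higher, beside 6.41% of all genes. In Drug-combination minus Mitoxantrone 4 passed and in Gilteritinib minus Mitoxantrone 3, all lower, beside 6.13% and 6.63%. The other 3 comparisons gave 0, beside 0.614% in Gilteritinib minus DMSO, 0.0485% in Drug-combination minus DMSO and 0.0754% in Drug-combination minus Gilteritinib. TXNIP, a glucose uptake inhibitor, had means of 79.1 FPKM in DMSO, 111 in Mitoxantrone, 91.4 in Gilteritinib and 110 in Drug-combination, for 0.49 (SE 0.180, adjusted p 0.547) in Mitoxantrone minus DMSO, and was called there with replicates 2 and 3 only (0.58, adjusted p 0.00243). CITED2 stood at 44.5, 51.3, 45.6 and 47.3 FPKM in the same order. The mTORC1 inhibitor gene DDIT4 had the widest range of the branch relative to its lowest value, 1.82 to 21.9 FPKM. Other genes on either strand share 41.2% of its exon bases, and the largest overlap is with its antisense gene DDIT4-AS1. DDIT4 means were 7.96 in DMSO, 16.3 in Mitoxantrone, 4.16 in Gilteritinib and 5.32 FPKM in Drug-combination. Its difference was 1.01 in Mitoxantrone minus DMSO (adjusted p 0.750) and -1.60 in Gilteritinib minus Mitoxantrone (adjusted p 0.435) with all libraries. With replicates 2 and 3 only, DDIT4 was called higher in Mitoxantrone than in DMSO (0.92, adjusted p 0.000742) and lower in Gilteritinib than in DMSO (-0.96, adjusted p 0.00453). In that subset 1 of the 10 tested branch genes was also called lower in Drug-combination minus DMSO (0.0485% of all genes). The branch had 1 higher and 1 lower in Drug-combination minus Mitoxantrone (6.13%), and 1 lower in Gilteritinib minus Mitoxantrone (6.63%). It had 0 in Drug-combination minus Gilteritinib (0.0754%), and 1 higher and 1 lower in the interaction (2.97%). In the same branch, EIF4EBP1, a translation repressor, had means of 123 FPKM in DMSO, 94.5 in Mitoxantrone, 104 in Gilteritinib and 111 in Drug-combination, and was called lower in Mitoxantrone than in DMSO with replicates 2 and 3 only (-0.52, adjusted p 0.0122) but not with all libraries (-0.35, adjusted p 0.820). DEPTOR and AKT1S1, both inhibitors of mTORC1, had medians of 7.50 and 10.1 FPKM and were not called. DDIT4 was also lower in replicate 1 than in replicates 2 and 3 over all conditions (-1.29, adjusted p 0.00250).

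Of the 8 members, 3 differed between replicate 1 and replicates 2 and 3 in the model over all conditions, beside 39.6% of all genes. PIK3CG and PIK3R5 were higher and PIK3CD lower in replicate 1, as given above, though PIK3R5 and PIK3CD not in every condition. The other 5 differed by 0.12 or less in size, with adjusted p from 0.207 to 0.588. What the replicate number stands for is not given in the sources used here.

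Finally, the genes whose pattern over the 12 libraries was most like that of each member were taken from 9382 genes with a mean of at least 5 FPKM, after removing the replicate-number means. Pearson's r is given as a description, since libraries share conditions and so many genes were searched. PIK3CB was followed most closely by CHSY1 (r = 0.98) and MBP (0.97), PIK3CD by ARHGAP1 (0.97), PIK3CG by MRPS16 (0.96) and FAM111A (0.94), and PIK3CA by SATB1-AS1 (0.96) and ATP11B (0.96). PIK3R1 was followed by MEST (0.92) and BCKDHB (0.91), PIK3R5 by MCCC1 (0.97) and LRPAP1 (0.96), and AKT2 by PCSK7 (0.97) and CLDN15 (0.96). INPP5D, the member with the fewest fragments, had the weakest likeness, with ENSG00000230979 at 0.88 and RNU6-100P at 0.87.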

How the data were processed

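The authors deposited 1 table of FPKM per gene for 12 libraries, with 4 decimals. Per the labels, Bowtie 0.12.9, Cufflinks 2.1.1, HTSeq and DESeq2 were named with the mouse build mm10, although all gene identifiers are human Ensembl ones; the build used is thus uncertain, and positions here are from GENCODE release 29 (GRCh38). RNA was amplified by Geo-seq and made into libraries with a transposase kit. Amplification can add spread to low genes, and FPKM is relative to all mapped fragments. FPKM was used as log2(FPKM + 1) for the 18574 genes with at least 1 FPKM in at least 3 libraries, so fold changes of low genes are understated. Tests were run in limma 3.58.1 (R 4.3.3): the 12 libraries entered 1 model with a mean for each condition, and the variance prior followed expression level. The p-values were adjusted by Benjamini-Hochberg over all genes tested. The code was tested on simulated data without a replicate-number effect, which does not show how small a change could be found in these libraries.

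Depth and lengths were recovered as the values that make FPKM whole fragments; at the longest transcript of each gene, 63.6% to 68.5% of values of 100 to 1000 fragments came out whole (within 0.1), so depth is an estimate and no count test was run. Counting errors cover counting only, since reads were amplified without molecular identifiers. In deviations from condition means all 18 same-numbered pairs correlated, from 0.165 to 0.657. No differently numbered pairs are given for comparison. The first-numbered library of each condition stood apart from the others, so such correlations can arise whether or not the later numbers match. Whether the replicate numbers pair the libraries is therefore not shown, and the blocked fits and counts of pairs take the numbers as labelled. Members and gene lists were chosen with earlier results of these data known. Named genes are the members, all genes of the class I partner, AKT kinase and phosphatase lists, the 2 genes of each other list with the smallest p in each comparison with DMSO, the 2 genes most like each member, and overlapping genes. Some genes that this rule or the lists name are not reported here. Protein sequences were not used here.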

Additional observations from a re-analysis of the deposited data

How the results depend on the processing

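The count of 0 of 8 members called was the same under a pseudocount of 0.1, no filter, a mean of at least 5 FPKM (which leaves out PIK3CA and INPP5D), no mean-variance trend, quantile normalization, scaling by median ratios, a fit of only the 6 libraries compared, and each single library left out (0 to 0 calls in each comparison). With the replicate number as a block it was also 0 in every comparison and changed no member's call; PIK3CB in Gilteritinib minus Mitoxantrone had a blocked difference of -0.24 (adjusted p 0.115). With replicates 2 and 3 only, the count was 1 in Drug-combination minus Mitoxantrone and 1 in Gilteritinib minus Mitoxantrone, PIK3CB in both; over all genes it was then 1139 and 1231, against 0 and 0. The cause was not tested.

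As shares of fragments, which give long transcripts more weight by construction, PIK3CD held 44.1%, 43.99%, 45.9% and 45.2% in DMSO, Mitoxantrone, Gilteritinib and Drug-combination, PIK3CA 6.42%, 6.13%, 6.13% and 6.39%, PIK3CG 16.4%, 14.04%, 16.8% and 15.9%, and PIK3CB 35.8% in Mitoxantrone.

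Small differences that were not called changed sign. With replicates 2 and 3 only, these were Mitoxantrone minus DMSO of PIK3CA (0.0814), PIK3CD (-0.0822), PIK3R5 (-0.10) and INPP5D (-0.00802), Drug-combination minus DMSO of PIK3CA (-0.0167), PIK3CB (-0.0762), PIK3CD (-0.00864) and PIK3R5 (-0.12), Drug-combination minus Gilteritinib of PIK3CD (-0.0467), PIK3R5 (-0.0160) and INPP5D (-0.0377), Drug-combination minus Mitoxantrone of PIK3CA (-0.0981), Gilteritinib minus Mitoxantrone of PIK3R5 (0.00188) and AKT2 (0.00659), the interaction of PIK3CD (0.0355) and INPP5D (-0.0297). With quantile normalization, these were Mitoxantrone minus DMSO of INPP5D (-0.0162), Gilteritinib minus DMSO of PIK3CA (0.00188), Drug-combination minus DMSO of PIK3CG (0.00775), Drug-combination minus Mitoxantrone of PIK3CD (-0.00257), Gilteritinib minus Mitoxantrone of PIK3CA (0.0900) and PIK3CD (-0.0136). With median-ratio scaling, these were Gilteritinib minus DMSO of PIK3R1 (0.0233), Drug-combination minus DMSO of PIK3CG (0.00602), Drug-combination minus Gilteritinib of PIK3CD (-0.0389), Drug-combination minus Mitoxantrone of PIK3R5 (0.000361), Gilteritinib minus Mitoxantrone of PIK3CA (0.0329) and AKT2 (0.0382).

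Each library was also left out in turn. Mitoxantrone minus DMSO ranged from -0.0425 to 0.0455 for PIK3CA, -0.0788 to 0.13 for PIK3CD, -0.11 to 0.21 for PIK3R5 and -0.0294 to 0.17 for INPP5D. Gilteritinib minus DMSO ranged from -0.15 to 0.0108 for PIK3CA, -0.0719 to 0.17 for PIK3CD and -0.0302 to 0.0985 for PIK3CG. Drug-combination minus DMSO ranged from -0.0525 to 0.0769 for PIK3CA, -0.0760 to 0.0579 for PIK3CB, -0.0666 to 0.15 for PIK3CD, -0.0630 to 0.0454 for PIK3CG, -0.12 to 0.12 for PIK3R5, -0.0211 to 0.0288 for AKT2 and -0.13 to 0.0465 for INPP5D. Drug-combination minus Gilteritinib ranged from -0.000599 to 0.17 for PIK3CA, -0.10 to 0.0700 for PIK3CD, -0.10 to 0.0290 for PIK3CG, -0.0121 to 0.24 for PIK3R5 and -0.0798 to 0.00522 for AKT2. Drug-combination minus Mitoxantrone ranged from -0.0447 to 0.0847 for PIK3CA, -0.0203 to 0.0702 for PIK3CD, -0.20 to 0.13 for PIK3R5 and -0.19 to 0.00568 for INPP5D. Gilteritinib minus Mitoxantrone ranged from -0.14 to 0.0186 for PIK3CA and -0.0578 to 0.12 for PIK3CD. The interaction ranged from -0.16 to 0.0841 for PIK3CD, -0.0886 to 0.25 for PIK3R5 and -0.0442 to 0.16 for INPP5D.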
